A study of Mus musculus with 31 samples.

Results

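Mitochondrial ribosomal protein genes were examined across 31 BXD strains of mice. Members were all genes of the arrays with a probe that carried a single gene name starting with Mrpl or Mrps and a digit. There were 72 members among 15096 measured genes, 47 named for the large subunit (Mrpl) and 25 for the small subunit (Mrps). Each member had 1 probe, so no member could be set against a second probe of the same gene.

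The mitochondrial ribosome translates the few proteins encoded by mitochondrial DNA, all of them core subunits of the respiratory chain and ATP synthase. Its own proteins are encoded in the nucleus, made in the cytosol and imported, while its ribosomal RNAs come from mitochondrial DNA. It descends from a bacterial ribosome, keeps counterparts of many bacterial ribosomal proteins and has gained others that bacteria lack. Kidney tubules rely on oxidative phosphorylation for salt and solute transport.

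The BXD strains are inbred lines whose founders were C57BL/6J and DBA/2J mice. Per the labels, RNA of 3 male mice aged 8 weeks was pooled for each BXD strain, labelled with the red dye Alexa Fluor 647 and hybridized to 1 spotted array against a common reference of male C57BL/6J mice of the same age, labelled with the green dye Alexa Fluor 555. The dyes were not swapped. The tissue is not settled, as the titles give it as kidney and the source fields as whole brain. Values are log2 ratios, with BXD strain over C57BL/6J as the likely direction from the dyes and limma's red over green convention. If the ratios run the other way, every higher and lower is exchanged. They hold no level, so the tissue could not be checked by the level of its markers. Background knowledge of how the panel was bred, not the labels, divides it into BXD33-42 (7 strains) and BXD1-32 (24 strains). Each strain had 1 array, so an effect of the strain and one of the array cannot be told apart, and p-values measure the spread between arrays. In a mean over strains, the effects of dye, reference RNA and strain come together.

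Pairs of arrays had a median correlation of 0.36 (range -0.09 to 0.81). The arrays were cut into 6 clusters, of which cluster 1 held 10 arrays, cluster 4 held 6 and cluster 5 held 9, while BXD15 and BXD38 stood alone. The position of a spot in the repeat of 480 spots accounted for 36.7% of the variance of the probes' means over strains.

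The first comparison asked how the members stood in the BXD strains relative to C57BL/6J. Read as BXD over C57BL/6J, more mitochondrial ribosomal protein genes were higher than lower. The mean over 31 strains was higher than the C57BL/6J reference for 39 of 72 members, lower for 6, and did not pass the test for 27 (limma, adjusted p under 0.05 over all genes). Over all genes, 26.5% were higher and 29.3% lower. With the ratio turned, 6 members would be higher and 39 lower. The median of the members' mean log2 ratios was 0.17, with an interquartile range of -0.01 to 0.36, against a median of -0.01 over all genes. With the effect of spot position removed, 38 members were higher and 7 lower, 42 of the 45 calls were shared, and none had the opposite direction. Without BXD15 and BXD38, 40 were higher and 6 lower, with a median of 0.21.

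**Figure D1:**
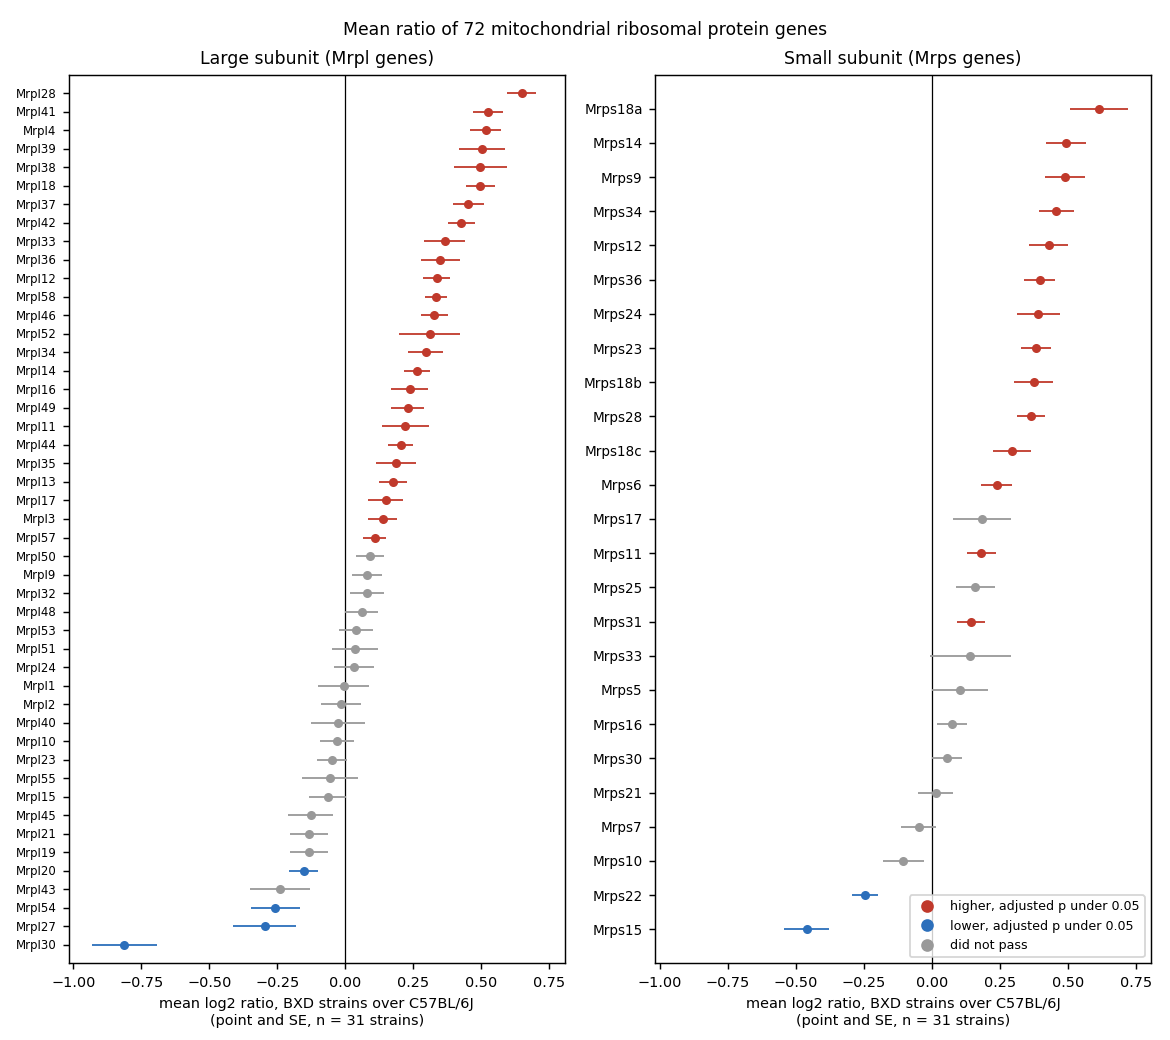
Mean log2 ratio of each of the 72 members, BXD strains over C57BL/6J, with its SE over 31 strains (horizontal axis), for the large subunit at left and the small subunit at right. Red points were higher, blue points lower and grey points did not pass. Points lie between -0.30 and 0.65 except Mrps15 at -0.46 and Mrpl30 at -0.81.

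Both subunits had more higher than lower genes. Over all genes, 26.5% were higher and 29.3% lower. Of the large subunit genes, 25 of 47 (53.2%) were higher and 4 (8.5%) lower, with a median of 0.14. Of the small subunit genes, 14 of 25 (56%) were higher and 2 (8%) lower, with a median of 0.18. Subunits are taken here from the gene names, although structures place the proteins of Mrps18a and Mrps30 in the large subunit. Members were also divided, by a list of the numbers in their names, into those with and without a bacterial counterpart. Counterparts under other numbers can be missed in this way. Mrps24 is counted among those with a counterpart although its number is not that of a bacterial protein, and Mrps36 among those without one. Members with a bacterial counterpart had 23 of 43 (53.5%) higher and 4 (9.3%) lower (median 0.18). Those without one had 16 of 29 (55.2%) higher and 2 (6.9%) lower (median 0.16). The difference between these groups was not tested.

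Among large subunit proteins with a bacterial counterpart, Mrpl28 had the highest mean of the members. Its log2 ratio ran from 0.18 in BXD28 to 1.63 in BXD20 with a median of 0.66, and its mean was 0.65 ± 0.052 (SE, n = 31 strains, limma adjusted p = 1.07e-11). All 31 strains lay above the reference. Mrpl18, the counterpart of the bacterial protein that binds 5S ribosomal RNA, was also above 0 in 31 of 31 strains. It ran from 0.06 in BXD33 to 0.99 in BXD31, with a mean of 0.50 ± 0.053 (adjusted p = 2.15e-09). Mrpl4, whose counterpart lines the tunnel through which new proteins leave the ribosome, ran from -0.10 in BXD16 to 1.05 in BXD40 (mean 0.52 ± 0.056, adjusted p = 3.06e-09). It was above 0 in 30 strains.

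Large subunit proteins that bacteria lack were also among the highest. Mrpl41 ran from -0.10 in BXD15 to 1.02 in BXD23, with a mean of 0.52 ± 0.054 (adjusted p = 1.16e-09). Mrpl39, which is related in sequence to threonyl-tRNA synthetases, ran from -0.16 in BXD14 to 1.36 in BXD32 around a mean of 0.50 ± 0.083 (adjusted p = 5.15e-06). Mrpl38, which has a domain of the phosphatidylethanolamine-binding family, had a similar mean of 0.50 ± 0.097 but a wider spread, with a median of 0.33 and a highest value of 2.10 in BXD5. With spot position removed, Mrpl39 had a mean of 0.27 (adjusted p = 0.00514) and Mrpl41 a mean of 0.33 (adjusted p = 8.31e-07).

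In the small subunit by name, Mrps18a had the highest mean. Mrps18a, Mrps18b and Mrps18c are 3 mammalian relatives of bacterial S18. Mrps18a ran from -0.89 in BXD21 to 2.21 in BXD5, with a mean of 0.62 ± 0.108 (adjusted p = 1.21e-05), and 27 of 31 strains lay above 0. Mrps18b averaged 0.37 ± 0.073 (adjusted p = 5.46e-05) and Mrps18c averaged 0.29 ± 0.071 (adjusted p = 0.000647), so all 3 relatives were higher. Mrps14 had a median of 0.59 and a mean of 0.49 ± 0.074 (adjusted p = 1.12e-06). Its lowest value was -1.31 in BXD15 and 29 of 31 strains were above 0.

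**Figure D2:**
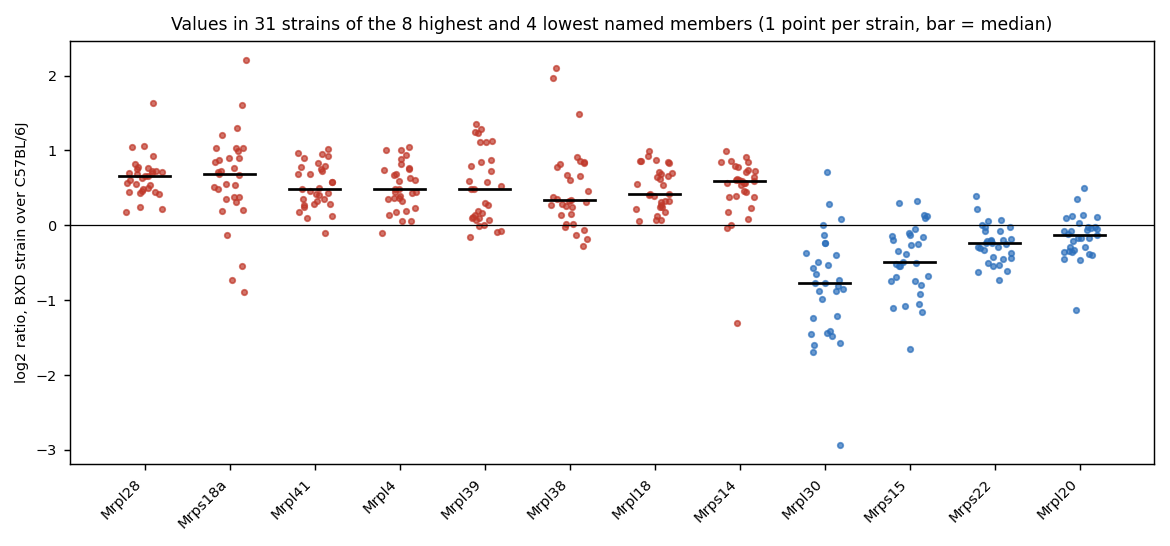
Log2 ratio of BXD strain over C57BL/6J (vertical axis) for the 8 members with the highest and the 4 with the lowest means among those past the test with the same sign in at least 24 strains, with 1 point per strain and a bar at the median. The points of Mrpl28 and Mrpl18 all lie above 0, and Mrpl30 reaches -2.94.

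Of the 6 lower members, 4 had the same sign in at least 24 strains. Mrpl30, the counterpart of bacterial L30, ran from -2.94 in BXD12 to 0.71 in BXD38 with a median of -0.77. Its mean was -0.81 ± 0.121 (SE, n = 31, adjusted p = 9.61e-07) and it was below 0 in 27 of 31 strains. With spot position removed, its mean was -0.54 (adjusted p = 0.00022). Mrps15, whose bacterial counterpart binds the small subunit RNA early in assembly, ran from -1.66 in BXD13 to 0.33 in BXD36, with a mean of -0.46 ± 0.082 (adjusted p = 1.56e-05). Mrps22, which bacteria lack and whose human gene is mutated in a disease of heart muscle and kidney tubules, ran from -0.73 in BXD19 to 0.40 in BXD15 (mean -0.24 ± 0.048, adjusted p = 6.09e-05). Mrpl20 had the mean nearest to 0 of the 4, at -0.15 ± 0.054 (adjusted p = 0.0152), and with spot position removed it did not pass (-0.09, adjusted p = 0.212). The other lower members, Mrpl27 (-0.30 ± 0.116, adjusted p = 0.0300) and Mrpl54 (-0.26 ± 0.090, adjusted p = 0.0147), had values of both signs in more strains. Mrpl27, whose bacterial counterpart reaches towards the site of peptide bond formation, did not pass without BXD15 and BXD38 (-0.27, adjusted p = 0.0531).

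Among members of well-known role, the L7/L12 stalk gene Mrpl12 ran from -0.19 in BXD9 to 0.84 in BXD33 and was higher on average (0.34 ± 0.049, adjusted p = 7.64e-07). The gene of its anchor on the ribosome, Mrpl10, had a mean of -0.03 ± 0.062 and did not pass (adjusted p = 0.708, and 0.0880 at a mean of -0.11 with spot position removed). Mrpl11, at the base of the stalk, was higher at 0.22 ± 0.085 (adjusted p = 0.0276). Mrps12, the counterpart of the bacterial decoding-site protein S12, had a mean of 0.43 ± 0.073 (adjusted p = 7.54e-06) with a highest value of 1.68 in BXD20, and a mean of 0.20 with spot position removed (adjusted p = 0.0108). Mrps34, which bacteria lack, had a mean of 0.46 ± 0.065 (adjusted p = 4.05e-07) and 29 of 31 strains above 0. Mrpl44, which carries a ribonuclease III-like domain, averaged 0.20 ± 0.046 (adjusted p = 0.000298), and 0.10 with spot position removed (adjusted p = 0.0431). Mrpl3 averaged 0.14 ± 0.055 (adjusted p = 0.0332) and did not pass with each array centred on its median (adjusted p = 0.0530). Mrps16, mutated in a human deficiency of mitochondrial translation, had a mean of 0.07 ± 0.055 and did not pass (adjusted p = 0.255). It did pass without BXD15 and BXD38 (0.13, adjusted p = 0.00686) and with spot position removed (0.14, adjusted p = 0.0373), and its value in BXD15 was -1.06.

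Mrps36 is a member by its name, but its protein is now known as a subunit of the 2-oxoglutarate dehydrogenase complex. It was higher at 0.40 ± 0.057 (adjusted p = 5.22e-07). Without it, 38 of 71 members were higher and 6 lower, with a median of 0.16. The 3 measured mitoribosomal proteins named otherwise, Dap3, Chchd1 and Ptcd3, did not pass. Their means were -0.17 ± 0.143 for Dap3, -0.19 ± 0.089 for Chchd1 and -0.15 for Ptcd3 (adjusted p = 0.323, 0.0740 and 0.0623). With spot position removed, Ptcd3 was lower (-0.20, adjusted p = 0.00739) and Chchd1 had a mean of 0.0062 (adjusted p = 0.953).

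The genes that act around the ribosome were divided between both directions, with shares of higher genes near that of all genes. Of 13 mitochondrial translation factors, 3 (23.1%) were higher and 2 (15.4%) lower, against 26.5% and 29.3% of all genes. The initiation factor gene Mtif2 had a mean of 0.41 ± 0.056 (adjusted p = 2.92e-07) and Lrpprc, whose protein binds mitochondrial messenger RNAs, had 0.31 ± 0.054 (adjusted p = 8.07e-06). On the low side were Mtfmt, which formylates the initiator tRNA (-0.61 ± 0.148, adjusted p = 0.000785), and the ribosome recycling factor gene Mrrf (-0.56 ± 0.112, adjusted p = 8.87e-05). Of 17 assembly genes, 4 (23.5%) were higher and 6 (35.3%) lower. They included the rRNA methyltransferase gene Mrm3 (0.40 ± 0.057) and the GTPase gene Mtg2 (0.38 ± 0.049) on the high side, and Mterf3 (-0.33 ± 0.060) and the pseudouridine synthase gene Rpusd4 (-0.29 ± 0.072) on the low side. With spot position removed, Rpusd4 did not pass (0.03, adjusted p = 0.681), Mtg2 had a mean of 0.24, and 3 assembly genes were higher and 4 lower.

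Of 8 mitochondrial tRNA synthetases, 2 (25%) were higher, Sars2 (0.32 ± 0.056) and Tars2 (0.12 ± 0.049), and 1 (12.5%) was lower, Yars2 (-0.68 ± 0.097). Over all genes, the shares were 26.5% and 29.3%. Removing spot position left 4 synthetase genes higher and 1 lower. Of 8 genes of mitochondrial transcription and DNA, 2 (25%) were higher and 3 (37.5%) lower. Tfam, which packages mitochondrial DNA and starts its transcription, was lower at -0.26 ± 0.068 (adjusted p = 0.00154). The mitochondrial DNA polymerase gene Polg was lower at -0.21 ± 0.083 (adjusted p = 0.0325), and the transcription factor gene Tfb2m (0.21 ± 0.060) and the DNA-binding protein gene Ssbp1 (0.17 ± 0.053) were higher. Polg had a mean of -0.32 and Ssbp1 of 0.27 once spot position was removed. Of 8 measured regulators of mitochondrial genes, 2 (25%) were higher and 4 (50%) lower. Nrf1 had a mean of 0.83 ± 0.198 (adjusted p = 0.000619), which was 0.33 with spot position removed (adjusted p = 0.0171). Yy1 had a mean of 0.15 ± 0.060, while the nuclear receptor gene Esrra was lower at -0.90 ± 0.097 (adjusted p = 2.82e-09), as was the ETS factor gene Gabpa at -0.29 ± 0.067.

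In the same reading of the ratio, most genes of the 2 larger groups set beside the members were higher. Over all genes, 26.5% were higher and 29.3% lower. Of 77 respiratory chain genes, 51 (66.2%) were higher and 6 (7.8%) lower, with a median of 0.46. Of 64 cytosolic ribosomal protein genes, 47 (73.4%) were higher and 2 (3.1%) lower, with a median of 0.45. The median of the members, 0.17, lay below both, and the difference was not tested. In the respiratory chain list, Cox6a1 (1.15 ± 0.149) and Ndufa1 (1.04 ± 0.105) had the highest means, and the testis form Cox7b2 (-0.76 ± 0.110) and the lung form Cox4i2 (-0.67 ± 0.119) the lowest. In the cytosolic ribosome, Rplp1 (1.24 ± 0.123) and Rpl27 (1.12 ± 0.117) were highest, and Rpl23 (-0.28 ± 0.100) and Rps2 (-0.13 ± 0.057, and -0.21 with spot position removed) were the 2 lower genes.

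The second question was whether the members varied together from strain to strain. Members as a group covaried weakly. The mean Pearson correlation over 31 strains was 0.08 ± 0.021 (jackknife SE over strains) across 2556 pairs of members, against 0.0027 across all pairs of genes. It was 0.16 among respiratory chain genes and 0.25 among cytosolic ribosomal protein genes, and these differences were not tested. A correlation over 0.5 was found for 6.03% of member pairs and 2.88% of all pairs, and one under -0.5 for 2.00% of member pairs and 2.35% of all pairs. Genes on 1 array share its hybridization and normalization, so these values are a description. The mean correlation of members was 0.07 within the large subunit, 0.09 within the small subunit and 0.09 between the subunits. Over all members it was 0.06 without BXD15 and BXD38. Leaving out any 1 strain gave 0.06 to 0.08.

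Each member was next set against the mean of the other 71 members. The correlation was above 0 for 57 members and below 0 for 15. It exceeded 0.5 for 18 members, which is 25% of them, while 7.84% of the other 15024 genes had a correlation over 0.5 with the member mean. The 6 members most tied to the others were Mrps16 (r = 0.73), Mrpl2 (0.69), Mrpl11 (0.67), Mrpl28 (0.66), Mrpl35 (0.62) and Mrpl58 (0.60). Mrpl2 is the counterpart of the bacterial protein near the peptidyl transferase centre, and Mrpl58 is a peptidyl-tRNA hydrolase built into the large subunit. Leaving out the arrays that stood apart changed these values. Without BXD15 and BXD38 the correlations were 0.53 for Mrps16, 0.49 for Mrpl2, 0.61 for Mrpl11, 0.63 for Mrpl28, 0.63 for Mrpl35 and 0.46 for Mrpl58. The order also changed with the first principal component of all genes removed. Mrpl37 then had 0.74 and Mrpl41 0.72, against 0.57 and -0.03 as reported. Mrps16 had 0.72, Mrpl2 0.55, Mrpl11 0.52, Mrpl28 0.57, Mrpl35 0.43 and Mrpl58 0.47.

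The 4 members least tied to the others were Mrpl30 (r = -0.47), Mrps22 (-0.39), Mrpl57 (-0.36) and Mrpl21 (-0.31). Mrpl30 and Mrps22 were also lower in the mean over strains. Mrpl57 had a mean of 0.11 ± 0.042 (adjusted p = 0.0303). It did not pass with spot position removed (0.01, adjusted p = 0.860), with arrays centred (0.09, adjusted p = 0.0555) or without BXD15 and BXD38 (0.07, adjusted p = 0.0655). Mrpl21 had a mean of -0.13 ± 0.070 and did not pass (adjusted p = 0.108), but was lower without BXD15 and BXD38 (-0.16, adjusted p = 0.0454) and had a mean of -0.03 with spot position removed (adjusted p = 0.763). Without BXD15 and BXD38 the correlations were -0.37 for Mrpl30 and -0.22 for Mrps22, and nearer to 0 for Mrpl57 (-0.06) and Mrpl21 (-0.14). With the first principal component removed they were -0.14 for Mrpl30, -0.23 for Mrps22, -0.49 for Mrpl57 and -0.10 for Mrpl21.

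**Figure D3:**
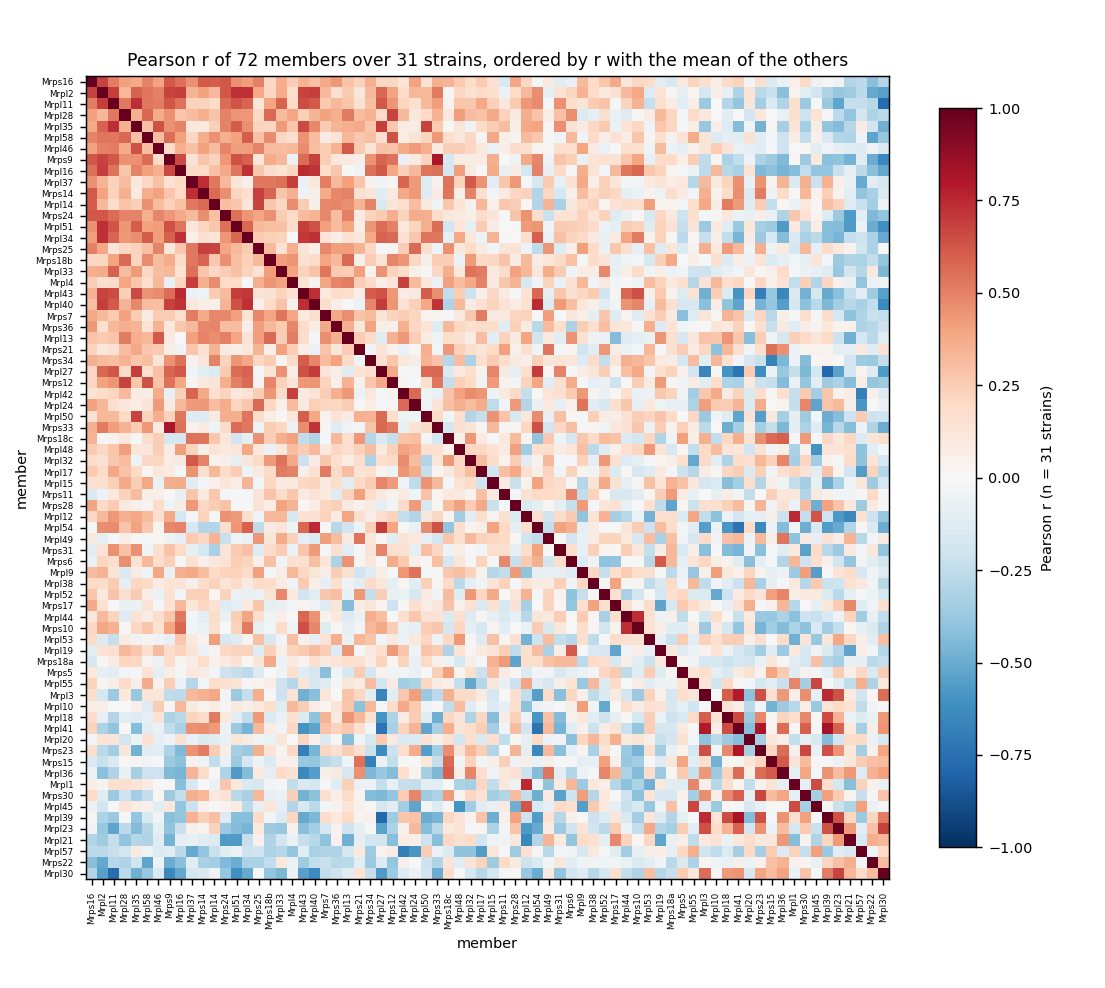
Pearson correlation over 31 strains of each pair of the 72 members, from -1 (blue) to 1 (red), with members ordered on both axes by their correlation with the mean of the others. Red cells fill the upper left, where Mrps16, Mrpl2 and Mrpl11 stand, a smaller red block at the lower right holds Mrpl39, Mrpl41 and Mrpl23, and Mrpl30 in the last row is blue against the first members.

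The promoters of the most and least tied members, by the correlations as reported, were searched for 4 motifs. These are known from nuclear genes of mitochondrial proteins or from promoters at large. The sequences shown are windows of 300 bases around the start of transcription from RefSeq, build GRCm38.p6, 5′ to 3′ on the strand of the gene. Capitals mark the matches, on either strand, to the NRF1 core GCATGCGC, the ETS/GABP motif CCGGAAG, the YY1 motif AAGATGGC and the NF-Y motif CCAAT. The windows are chr14:20393441-20393740 on the minus strand for Mrps16, chr17:46645971-46646270 on the plus strand for Mrpl2, chr19:4962056-4962355 on the plus strand for Mrpl11, chr9:98601630-98601929 on the minus strand for Mrps22 and chr1:37890227-37890526 on the plus strand for Mrpl30. For Mrps16 and Mrpl2, which have several listed starts, the first is shown.
Mrps16: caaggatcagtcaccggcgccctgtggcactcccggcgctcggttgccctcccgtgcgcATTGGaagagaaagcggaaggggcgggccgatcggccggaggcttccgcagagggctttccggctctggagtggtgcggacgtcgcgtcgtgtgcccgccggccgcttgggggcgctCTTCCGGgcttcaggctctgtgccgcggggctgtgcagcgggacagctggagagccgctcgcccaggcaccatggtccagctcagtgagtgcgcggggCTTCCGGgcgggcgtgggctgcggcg
Mrpl2: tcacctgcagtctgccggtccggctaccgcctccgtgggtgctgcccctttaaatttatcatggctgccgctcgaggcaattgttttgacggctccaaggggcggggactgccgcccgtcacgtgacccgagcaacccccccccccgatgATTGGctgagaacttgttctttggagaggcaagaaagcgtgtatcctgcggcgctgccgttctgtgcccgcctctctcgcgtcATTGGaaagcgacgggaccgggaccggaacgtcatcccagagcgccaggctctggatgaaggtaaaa
Mrpl11: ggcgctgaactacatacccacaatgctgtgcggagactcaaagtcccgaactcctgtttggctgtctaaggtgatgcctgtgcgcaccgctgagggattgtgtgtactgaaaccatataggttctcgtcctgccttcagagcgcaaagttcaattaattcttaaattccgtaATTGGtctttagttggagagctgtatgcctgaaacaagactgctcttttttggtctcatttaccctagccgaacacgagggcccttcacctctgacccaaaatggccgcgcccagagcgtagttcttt
Mrps22: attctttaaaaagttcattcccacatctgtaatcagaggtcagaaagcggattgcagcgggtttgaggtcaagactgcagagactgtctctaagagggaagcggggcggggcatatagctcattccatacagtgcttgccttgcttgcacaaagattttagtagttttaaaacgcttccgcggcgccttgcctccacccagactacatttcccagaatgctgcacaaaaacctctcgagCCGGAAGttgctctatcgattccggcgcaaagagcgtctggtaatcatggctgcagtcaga
Mrpl30: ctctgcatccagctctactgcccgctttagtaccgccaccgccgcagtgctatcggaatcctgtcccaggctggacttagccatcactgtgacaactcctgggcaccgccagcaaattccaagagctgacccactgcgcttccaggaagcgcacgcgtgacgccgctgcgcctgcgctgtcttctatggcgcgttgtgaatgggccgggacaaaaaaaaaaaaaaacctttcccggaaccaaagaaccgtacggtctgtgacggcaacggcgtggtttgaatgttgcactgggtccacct
The Mrps16 window held 2 ETS/GABP matches, 74 bases before and 24 bases after the start, both on the opposite strand, and 1 NF-Y match. The Mrpl2 window held 2 NF-Y matches and the Mrpl11 window 1. Mrps22, among the least tied, had an ETS/GABP match 11 bases before the start, and the Mrpl30 window had no match to these letters.

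Of the 72 members, 64 were matched to 70 promoters. The ETS/GABP motif was in 32.9% of member promoters and in 8.86% of all 32851 promoters of the table. The YY1 motif was in 15.7% of member promoters and 2.75% of all promoters, the NRF1 core in 10% and 2.71%, and the NF-Y motif in 41.4% and 37.4%. Member promoters were richer in GC (median 58.5% against 52.7%) and in CpG (median 21 against 7 per window), and the part of base composition in these shares was not tested. The 23 members with the ETS/GABP motif had a median mean log2 ratio of 0.14, against 0.18 for the 41 without it. Their median correlation with the other members was 0.35, against 0.22 without it. For the 11 members with the YY1 motif, the median mean log2 ratio was 0.35, against 0.14 for the 53 without it. Their median correlation was 0.39, against 0.22. The other motifs went the other way in correlation, at 0.32 with the NRF1 core and 0.34 without, and 0.28 with NF-Y and 0.33 without. Median mean log2 ratios were 0.15 with the NRF1 core and 0.16 without, and 0.20 with NF-Y and 0.12 without. These splits are descriptions and were not tested.

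Pairs of members showed where the covariation was strong. Mrpl39 and Mrpl41 had the highest correlation over strains (r = 0.83), followed by Mrps33 and Mrps9 (0.81), Mrpl41 and Mrps23 (0.81) and Mrpl3 and Mrpl41 (0.79). The lowest correlations were those of Mrpl27 with Mrpl39 (-0.78), Mrpl11 with Mrpl30 (-0.76) and Mrpl41 with Mrpl54 (-0.74). All 7 of these moved towards 0 once the first principal component of all genes, 21.9% of the variance, had been removed. The pair of Mrpl39 and Mrpl41 then had r = 0.57, Mrpl27 with Mrpl39 had -0.39 and Mrpl11 with Mrpl30 had -0.52. Mrpl1 and Mrpl12 had r = 0.75, and 0.82 with the component removed.

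Members differed in how much they varied among strains. The median SD over 31 strains was 0.37 for members and 0.36 for all genes. Mrps33, a small subunit protein that bacteria lack, had the widest spread (SD 0.89), from -2.49 in BXD36 to 1.23 in BXD12. Mrpl30 had an SD of 0.71 and Mrpl27 of 0.69, and Mrpl27 ran from -1.52 in BXD32 to 0.95 in BXD2. Mrpl58 had the smallest SD, 0.20, with values from -0.02 in BXD38 to 0.76 in BXD12. Dividing the strains of each gene at the best point, with at least 5 on each side, removed 78.9% of the sum of squares for Mrpl18, 78.3% for Mrpl42 and 78.2% for Mrpl39, against a median of 64.1% for members and 64.5% for all genes. These 3 had the largest shares of the 72 members, and 3.11% of all genes reached the share of Mrpl39, against 4.17% of members, which is near that background. Mrpl18 lay between 0.54 and 0.99 in 15 strains and between 0.06 and 0.42 in the other 16. Mrpl42, which bacteria lack, lay between 0.34 and 0.72 in 22 strains and between -0.18 and 0.26 in 9. Mrpl39 lay between 0.73 and 1.36 in 11 strains and between -0.16 and 0.60 in 20.

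The level of the whole group was then followed from strain to strain as the mean log2 ratio of the 72 members. It ran from -0.16 in BXD15 and -0.07 in BXD38 to 0.38 in BXD2, with a median of 0.13. In 29 of 31 strains it was above 0. The number of members above 0 ran from 28 in BXD15 to 65 in BXD12, while 48.3% to 54.2% of all genes were above 0. The strains next to BXD2 at the high end were BXD12 (0.34), BXD11 (0.33) and BXD20 (0.33). The large and the small subunit means went together over strains (r = 0.80, rho = 0.73, n = 31).

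**Figure D4:**
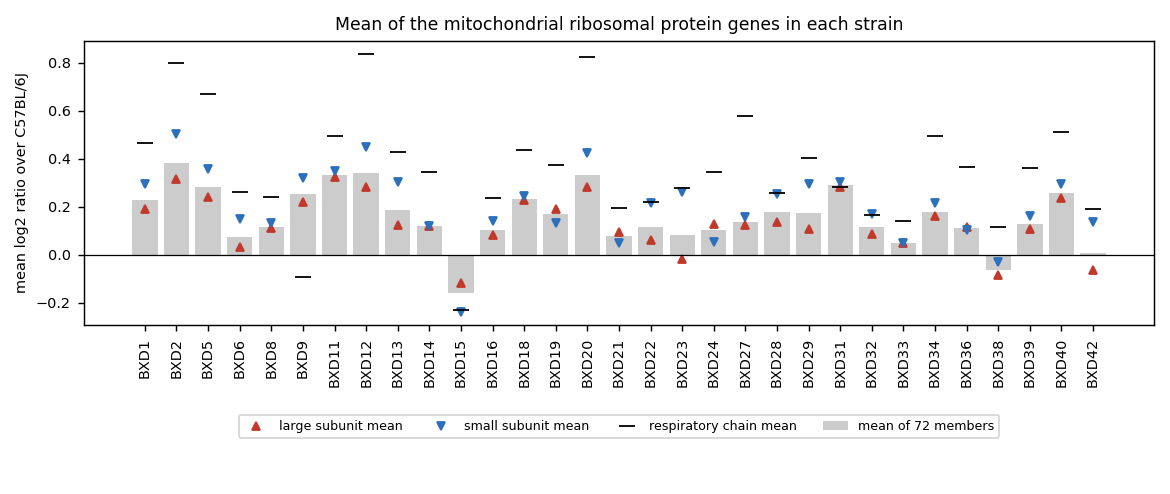
Mean log2 ratio of the 72 members in each strain (grey bars), with the large subunit mean (red triangles), the small subunit mean (blue triangles) and the respiratory chain mean (black lines). Bars of 29 strains lie above 0 and those of BXD15 and BXD38 below it.

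The member mean of a strain was correlated with that of the 77 respiratory chain genes (r = 0.76 ± 0.146, jackknife SE, rho = 0.76, n = 31). Without BXD15 and BXD2, the strains farthest from the median, r was 0.64. Within array clusters the correlation was 0.94 in cluster 1 (n = 10), 0.29 in cluster 4 (n = 6) and 0.74 in cluster 5 (n = 9). BXD12 had a respiratory chain mean of 0.84 and a member mean of 0.34, and BXD15 was lowest in both (-0.23 and -0.16). BXD9 departed from the rest, with a member mean of 0.25 and a respiratory chain mean of -0.09. All strains share the reference and the normalization, so these correlations are a description.

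**Figure D5:**
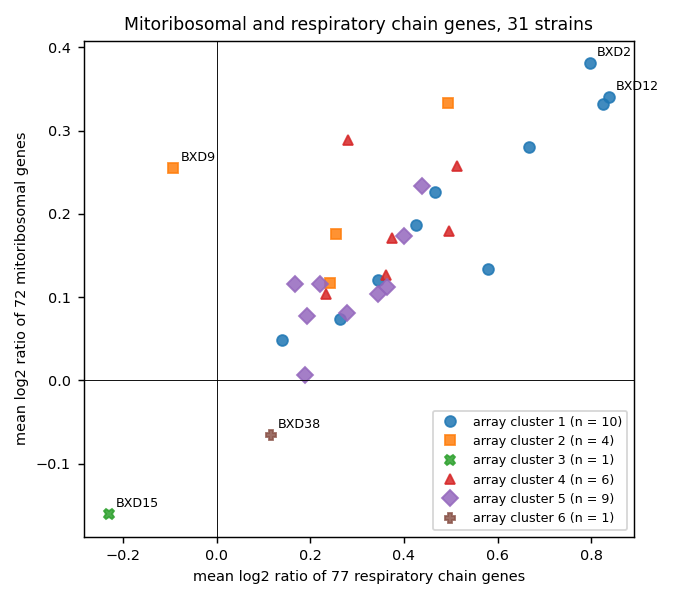
Mean log2 ratio of the 72 members (vertical axis) against that of 77 respiratory chain genes (horizontal axis) in 31 strains, with 1 point per strain and a symbol for each array cluster. Most points run from lower left to upper right (r = 0.76), BXD15 lies at the lower left and BXD9 lies left of the others.

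The correlation with the cytosolic ribosome had values of both signs among the clusters. Over 31 strains r was 0.54 (rho = 0.41), without BXD15 and BXD2 it was 0.32, and within clusters it was 0.84 in cluster 1, -0.19 in cluster 4 and 0.76 in cluster 5. The difference from the correlation with the respiratory chain was not tested. Translation factors (r = -0.01), assembly genes (0.27), tRNA synthetases (0.29), genes of mitochondrial transcription and DNA (0.12), regulators (0.22) and mitoribosomal proteins named otherwise (0.14) had lower values, from lists of 3 to 17 measured genes. Without BXD15 and BXD38, these were -0.07 for translation factors, 0.11 for assembly genes, 0.47 for tRNA synthetases, 0.05 for transcription and DNA, 0.58 for regulators and 0.23 for proteins named otherwise. Within clusters 1, 4 and 5, translation factors had 0.56, 0.56 and 0.15, and assembly genes -0.30, 0.78 and -0.18. In the same clusters, tRNA synthetases had 0.65, 0.45 and 0.08, and regulators 0.61, 0.40 and 0.19. Transcription and DNA had -0.06, 0.68 and -0.03, and proteins named otherwise 0.40, 5.8e-05 and -0.67. Translation factors had 0.43 with the first principal component removed. Of single regulators, Pprc1 had r = 0.35, Ppargc1a 0.30, Nrf1 0.25, Gabpa -0.20 and Esrra -0.33. Without BXD15 and BXD38 these were 0.10 for Pprc1, 0.46 for Ppargc1a, 0.28 for Nrf1, 0.08 for Gabpa and -0.05 for Esrra. With the first principal component removed, they were 0.50 for Pprc1, 0.02 for Ppargc1a, -0.30 for Nrf1, 0.11 for Gabpa and -0.13 for Esrra. Nrf1 had 0.50 with spot position removed.

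Markers of cell types and the arrays' main axis of variation were set beside the member mean, and correlations had both signs. Within a list, markers had a mean pairwise correlation of 0.37 for proximal tubule, 0.20 for endothelial, 0.38 for muscle and 0.42 for adipose markers. It was 0.17 for loop of Henle and distal nephron, -0.03 for neuronal, 0.02 for glial, -0.03 for podocyte and -0.09 for adrenal markers. The neuronal, glial, podocyte and adrenal lists thus did not vary together. The mean of 10 proximal tubule markers, of which 5 were higher and none lower in the mean over strains, lay between -0.87 in BXD38 and 1.46 in BXD2 and had r = 0.63 with the member mean (0.90 in cluster 1, 0.44 in cluster 4 and 0.63 in cluster 5). The mean of 7 endothelial markers, 2 higher and 1 lower, ran from -0.27 in BXD38 to 0.50 in BXD12 and had r = 0.65 (0.85 in cluster 1, -0.51 in cluster 4 and -0.04 in cluster 5). For 7 neuronal markers, 3 higher and 3 lower, r was -0.52 (-0.66 in cluster 1, 0.11 in cluster 4 and -0.05 in cluster 5). For 5 glial markers, 1 higher and 2 lower, r was -0.38. For 5 skeletal muscle markers, 4 of them lower, r was -0.42, and for 4 adipose markers, 3 of them higher, it was 0.38. With the first principal component removed, r was 0.04 for muscle and -0.11 for adipose markers. Over all genes, 26.5% were higher and 29.3% lower, and the counts of these short lists were not tested against those shares. With spot position removed, 3 proximal tubule markers were higher, and 1 neuronal marker was higher and 2 lower. Loop of Henle and distal nephron markers had r = 0.36 (rho = 0.09, and r = 0.02 without BXD15 and BXD2), podocyte markers 0.22 and adrenal markers 0.0043. The first principal component of all genes had r = 0.52 (0.74 in cluster 1, -0.03 in cluster 4 and 0.14 in cluster 5). Gapdh, a glycolytic gene with 232 spots, had r = 0.52, 0.19 without BXD15 and BXD2, and 0.72 with spot position removed. Its ratio in BXD15 was -1.20. The part of these in the member mean was not tested. Fewer cells of a type and less RNA per cell cannot be told apart in pooled tissue RNA.

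The 5 genes outside the group whose pattern over 31 strains was most like the member mean were Hes6 (r = 0.84), Vil1 (0.83), Pcdh1 (0.82), Rnf130 (0.82) and Gstk1 (0.81). Hes6 encodes a transcription factor of the Hes family, Vil1 the actin-bundling protein villin of brush borders, Pcdh1 a protocadherin, Rnf130 a ubiquitin ligase and Gstk1 a glutathione S-transferase of mitochondria and peroxisomes. Vil1 had a median of 0.72 and lay between -1.57 and 1.54, and Hes6 had a median of 0.49 and lay between -0.25 and 1.43. With the first principal component removed the correlations were 0.76 to 0.82.

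The last comparison set BXD33-42 against BXD1-32, the later and the earlier set of the panel. None of the 72 members passed the test (limma, adjusted p under 0.05), and 1 of 15096 genes did, which is 0.00662%. The median difference of the members, BXD33-42 minus BXD1-32, was -0.06, against -0.02 over all genes. It was below 0 for 46 of 72 members and above 0 for 26, against 8087 of 15096 genes below 0 and 7009 above. An unadjusted p under 0.05 (limma) was reached by 13 of 72 members and by 1946 of 15096 genes. The member mean of a strain averaged 0.10 ± 0.109 in BXD33-42 (SD, n = 7 strains) and 0.18 ± 0.118 in BXD1-32 (SD, n = 24 strains). It ran from -0.07 to 0.26 in BXD33-42 and from -0.16 to 0.38 in BXD1-32, so the sets overlapped.

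The members with the smallest p in that comparison were Mrpl40 and Mrpl30, and neither passed. Mrpl40, a large subunit gene that lies in the human chromosome region lost in DiGeorge syndrome, had a median of -0.33 in BXD33-42 (range -1.98 to 0.38) and of 0.20 in BXD1-32 (range -0.69 to 0.64). The difference was -0.74 ± 0.207 (SE, limma adjusted p = 0.153), and the lowest value was that of BXD38. Mrpl30 had a median of -0.23 in BXD33-42 (range -1.57 to 0.71) and of -0.86 in BXD1-32 (range -2.94 to 0.01). Its difference was 0.77 ± 0.262 (adjusted p = 0.206), and the highest value was again that of BXD38. Without BXD15 and BXD38 the smallest adjusted p of any member was 0.442.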

How the data were processed

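RNA of 31 BXD strains was measured on 2-colour arrays of 23040 probes against a common C57BL/6J reference. The deposited values are log2 ratios, the likely reading of the authors' table, whose base and direction are not given in the sources used here. R 2.0.0 and limma are named in the submitters' processing notes. Each of the 31 columns held the same set of values once sorted, so the deposited log2 ratios had been quantile normalized. Intensities were not used here, and the number of arrays limits the precision.

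Gene names came from the platform annotation: 16874 probes had 1 name and 134 had several, and these last were left out. Probes were averaged per gene. All 72 members matched RefSeq by gene number. Means over strains were tested against 0, and BXD33-42 against BXD1-32, by 2-sided limma fits (version 3.58.1, R 4.3.3) with eBayes and Benjamini-Hochberg adjustment over 15096 genes at a threshold of 0.05. The test against 0 leaves out the spread of the reference. The fits were tested on simulated data. Array clusters came from average linkage on 1 minus the correlation.

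Members, gene lists and tests were chosen with earlier results of these data known. Named were the 8 highest and 8 lowest members past the test with the same sign in at least 24 strains (only 4 lower ones met this), the 6 most and 4 least tied to the others, the 3 widest, the 3 with the clearest division of strains, the 2 with the smallest p between the sets, 10 of well-known role, the 5 other genes most like the member mean, and up to 2 at each end of each other list. Mrps18c, Mrps36, Mrpl54, Mrpl1 and the partners in correlated pairs were named after their values were seen. Alternatives were array centring, spot position removed, the probe of largest SD, single probes, the 10% of genes with the smallest SD left out, robust eBayes, array weights, Spearman correlation, the first principal component removed or as a covariate, arrays left out and single clusters.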

Additional observations from a re-analysis of the deposited data

Results flagged for a closer look

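Values of 31 cases, the 30 named members and the member mean in the 7 strains of BXD33-42, were examined for a strain far from the others, and 2 were found. Chance alone gives about 1 in 20 for cases chosen without their values. Many of the named members were chosen from these same values, so that rate does not hold for them. Mrps18a was -0.73 in BXD34, against 0.35 to 0.77 in the other 6 strains. Mrpl57 was 0.94 in BXD38, against 0.01 to 0.29 in the other 6 strains, and BXD38 is an array that stood apart from the rest. Mrpl57 had been named as least tied (r = -0.36), and had -0.06 without BXD15 and BXD38.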

How the results depend on the processing

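The counts of higher and lower members (35 to 41 higher, 6 to 7 lower) and their median kept their direction under every alternative run. The 35 is of the 69 members left once genes of small SD were left out, where only Mrpl17 lost its call. Several alternatives could not change a mean. With 1 probe per member, the probe of largest SD and single probes use the same values. Robust eBayes, leaving out genes of small SD and removing the first principal component keep each mean and change only its test. Array centring took the same constant from every array, so it left correlations and differences between sets unchanged. The 267 comparisons of the 30 named members include these, so their tally overstates how far the means were put to the test. Of the 267, 249 kept their direction and side of the threshold, 6 lost the call, 5 gained it and 7 changed sign. The 7 were of members that did not pass in any of these fits: Mrpl2 (-0.02 as reported) at 0.0054 with spot position removed, 0.0455 with array weights and 0.0589 without BXD15 and BXD38, Mrpl40 (-0.03) at 0.0056, 0.0268 and 0.0406 under the same 3, and Mrpl10 (-0.03) at 0.0056 with array weights. Those that lost the call were Mrpl20, Mrpl57 (3 alternatives), Mrpl27 and Mrpl3, and those that gained one were Mrps16 (3) and Mrpl21 (2). The mean pairwise correlation of members was 0.0568 without BXD15 and BXD38, 0.136 within cluster 1 and 0.0290 within cluster 5. Within clusters 1, 4 and 5, the correlation of the member mean was 0.936, 0.293 and 0.741 with the respiratory chain, 0.841, -0.189 and 0.755 with the cytosolic ribosome, 0.902, 0.436 and 0.628 with proximal tubule markers, and 0.736, -0.0284 and 0.139 with the first principal component. It was 0.317 with the cytosolic ribosome without the 2 farthest strains and 0.471 with proximal tubule markers once the first component was removed. The cause was not tested. Between the sets, array weights called 54 genes but 0 members (smallest adjusted p = 0.0651), and over the 6 alternatives the smallest adjusted p of a member was 0.0651 to 0.442. No paired analysis was possible because the sets share no strain or replicate numbers. With 1 probe per member, 1 array per strain and no dye swap, signal over background, dye effects and array effects could not be separated from strain effects.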
